A study of Homo sapiens with 12 samples.

Results

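Gene expression in KKU-213A, a human cell line from a cholangiocarcinoma (a cancer of the bile ducts) of mixed papillary and non-papillary type, was compared between cells grown with added lactate at neutral pH, called lactosis in the labels, and control cells. The genes described are all those that the authors' table of lactosis against control lists, 3087 of the 5308 genes listed in any of the 3 tables of the series. Nothing measured was used here to choose among them, but the authors list only genes that they had themselves called different between these same 6 libraries. All cells grew in low-glucose DMEM with fetal bovine serum, penicillin and streptomycin. Control cells received nothing further, and the labels state neither the pH of their medium nor their number of passages. Lactosis cells had spent at least 5 passages in medium with 25 mM L-lactate at pH 7.4. The remaining groups were lactic acidosis, with 25 mM L-lactate and 25 mM of the buffer HEPES at pH 6.7, and acidosis, with 25 mM HEPES at pH 6.5, both for at least 5 passages. Lactate cannot therefore be told apart from time in culture when lactosis is set against control. Each group had 3 libraries of poly(A) RNA, read as single ends of 75 nt. The labels do not say whether these came from separate cultures, so the tests measure a spread between libraries that may be technical.

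Lactate is made from pyruvate by lactate dehydrogenase and crosses the cell membrane with a proton through the monocarboxylate transporters. Cells can export it as the end product of glycolysis, or take it up, turn it back into pyruvate and burn it in mitochondria. In a tumour, lactate usually collects together with acid, so adding it at neutral pH is a way to look at the ion without the acid. Growing cells also adjust translation and amino acid supply through the transcription factor ATF4, protein folding through heat shock factors, and cell division through growth factor signals that lead to E2F and S phase.

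The deposited values are expression values scaled for gene length and library (whether TPM or FPKM is not stated), so read depth is unknown. Genes were compared with limma on log2(value + 1), with Benjamini-Hochberg adjusted p-values over the 3087 genes. An adjusted p under 0.05 is called higher or lower below, and every difference given as log2 is on the log2(value + 1) scale, which understates changes of genes with low values. Because the table holds genes picked for a difference in these libraries, a call here describes how a difference compares with the library spread and is not independent evidence of it. The control libraries stood further apart than the lactosis libraries: the median over genes of the SD as a percent of the mean was 18.0% in control and 8.9% in lactosis. Library weights fitted to the authors' group means were 1.0000 in control replicate 1, against 0.7839 and 0.7690 in control replicates 2 and 3 and between 0.7785 and 0.8820 in lactosis, so the deposited values of control replicate 1 lie low. A further difference remained after weighting. Among the 180 genes called higher by at least 1 on the log2 scale, control replicate 3 was the highest control in 146 and control replicate 1 the lowest in 141. Among the 203 genes called lower by at least 1, control replicate 1 was the highest control in 128 and control replicate 3 the lowest in 140. The median of control minus the lactosis mean for the higher genes was -1.5, -1.18 and -0.96 in control replicates 1, 2 and 3 on the log2 scale. For the lower genes it was 1.47, 1.33 and 1.14. The control libraries thus differed among themselves along the same genes that set lactosis apart, with replicate 3 nearest to lactosis and replicate 1 farthest. The cause was not tested. Lactosis replicate 2 and lactic acidosis replicate 2 also stood apart from the other libraries of their groups by transcripts of striated muscle, given below.

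**Figure D1:**
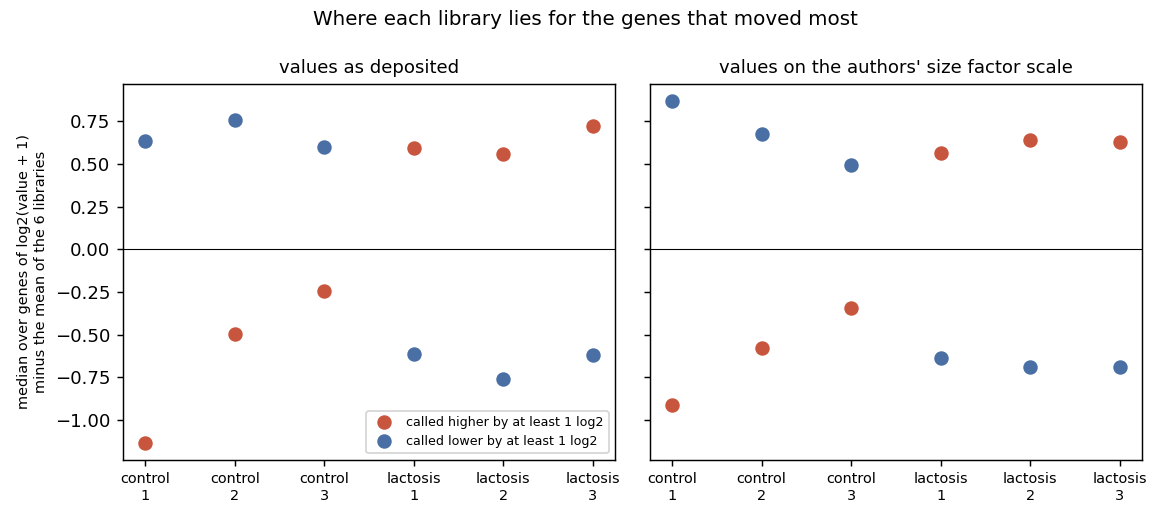
Median over genes of log2(value + 1) minus each gene's mean over the 6 libraries, by library, for the 180 genes called at least 1 log2 higher (red) and the 203 called at least 1 log2 lower (blue), with values as deposited (left) and after weighting to the authors' size factors (right). Lactosis libraries lie close together, and on the weighted scale control replicate 3 is the control nearest to them in both gene sets.

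Of the 3087 genes, 2398 were called, or 77.7%. These were 1435 called higher in lactosis (46.5% of all) and 963 called lower (31.2%). The 3 lactosis libraries lay wholly above the 3 control libraries in 1608 genes (52.1%) and wholly below in 986 (31.9%), together 2594 genes (84.0%). The split between higher and lower depended on scale. The median difference over all genes was 0.37, with quartiles of -0.48 and 0.62. Scaling the libraries to equal median ratios moved the median to 0.08 and the split to 924 higher and 1252 lower, that is from 59.8% to 42.5% of calls higher. The ratios were taken over the listed genes themselves, all picked for a difference. This scaling therefore tends to even out the split by its construction, and cannot tell which split is right, here or below. With library weights the counts were 1774 higher and 1228 lower. Without control replicate 1 they were 1361 and 1228. Counts for gene groups below are therefore read beside these shares and beside the median of 0.37. A fit with 1 library left out has fewer libraries, so a call can be lost there without a smaller difference. Large changes were fewer: 13 genes were called higher and 20 lower by at least 2 on the log2 scale.

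**Figure D2:**
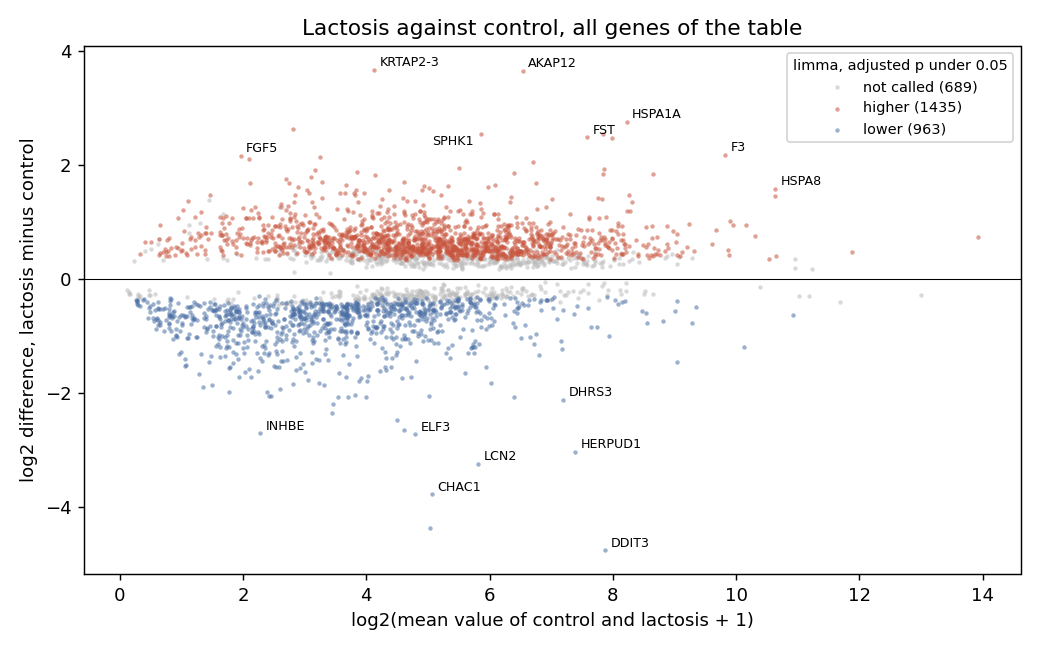
Each point is 1 of the 3087 genes, placed by its mean level (x, log2 of the mean over control and lactosis plus 1) and by its log2 difference, lactosis minus control (y). Colour gives the limma call, 1435 higher, 963 lower and 689 not called, and DDIT3 at -4.76 and KRTAP2-3 at 3.66 are the labelled extremes.

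DDIT3, CHAC1 and HERPUD1 had the largest falls among the named genes together with LCN2, and KRTAP2-3, AKAP12 and HSPA1A the largest rises. DDIT3 encodes CHOP, a transcription factor of the stress responses, and lies on chromosome 12 from 57516588 to 57521737 on the minus strand (hg38, GENCODE 29). Its value was 678.38, 480.78 and 202.53 in the control libraries and 16.64, 12.95 and 12.50 in lactosis. All lactosis values were far below the lowest control, although the controls themselves spanned a wide range, and DDIT3 fell by 4.76 ± 0.37 (SE) on the log2 scale, with a limma adjusted p of 6.89e-05. CHAC1, an enzyme that breaks down glutathione, went from 51.56, 78.56 and 54.47 to 3.71, 2.99 and 3.81. LCN2, the iron-carrier binding protein lipocalin 2, stood at 205.94, 69.56 and 32.01 in control and at 7.23, 7.17 and 7.56 in lactosis. The groups did not overlap, but control replicate 1 was far above the other controls. ELF3, an epithelial transcription factor, fell by 2.73 ± 0.19 (SE). RCSD1, a protein that binds the actin capping protein, fell by 2.66 ± 0.19, and CERS4, a ceramide synthase, by 2.36 ± 0.18. PABPC3, a relative of the poly(A)-binding proteins, fell by 2.20.

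AKAP12, a scaffold that anchors protein kinase A, lies on chromosome 6 from 151239999 to 151358557 on the plus strand. Its values were 4.78, 16.44 and 22.37 in control and 159.18, 139.73 and 206.91 in lactosis, a rise of 3.65 ± 0.43 (SE) on the log2 scale. SPHK1, which makes the signalling lipid sphingosine 1-phosphate, was even within both groups, at 15.48, 15.59 and 17.47 against 94.30, 102.26 and 98.20. Its rise of 2.53 ± 0.13 had a limma adjusted p of 1.12e-05. KRTAP2-3, a keratin-associated protein, rose from 0.98, 1.40 and 2.49 to 28.09, 31.85 and 34.26. Its values are less certain, since 35.0% of its sampled 75-base windows also occur in a transcript of another gene. FGF5, a fibroblast growth factor, stood at 0.09, 0.52 and 0.75 in control and at 4.73, 5.59 and 5.66 in lactosis. The carboxypeptidase gene CPA4 rose by 2.13 ± 0.33, and the zinc finger factor gene ZBED2 by 2.10 ± 0.21. RPL19P12 is named as a pseudogene of a ribosomal protein, and its rise of 2.62 may include reads of related copies.

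Few genes of lactate handling are in the table. Of the 34 genes listed for lactate and pyruvate handling, 4 were in the table, none was called higher and 2 were called lower. SLC16A1 and SLC16A3 encode monocarboxylate transporters. SLC16A3 read 169.24, 219.20 and 227.24 in control and 260.80, 242.24 and 253.08 in lactosis, and SLC16A1 read 223.91, 260.90 and 269.59 against 298.62, 272.69 and 325.16. In both genes the groups did not overlap, but the differences of 0.31 ± 0.15 and 0.25 ± 0.14 (SE) were not called (limma adjusted p of 0.0852 and 0.124). With library weights both were called higher (0.27 and 0.21). Under median ratio scaling SLC16A1 turned to -0.05. The called genes regulate the step from pyruvate into mitochondria. PDP1, the phosphatase that switches the pyruvate dehydrogenase complex on, fell from 64.58, 74.68 and 76.07 to 30.81, 26.38 and 33.55, by 1.22 ± 0.15. PDK2, a kinase that switches the complex off, fell from 15.77, 15.42 and 14.22 to 10.10, 8.64 and 7.54, by 0.73 ± 0.15. Both opposing regulators were thus lower in all 3 lactosis libraries. The other 30 listed genes, which include the lactate dehydrogenases, are not in the table and were not analysed here.

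Among genes of glycolysis and the pentose phosphate pathway, 11 of 34 were in the table, with 5 called higher, 2 lower and 4 not called. TXNIP, a brake on glucose uptake, rose from 2.42, 3.76 and 3.97 to 12.51, 9.45 and 12.24. ARRDC4, its relative among the arrestins, rose by 1.06 ± 0.17 (SE). TIGAR, a phosphatase that lowers a stimulator of glycolysis, rose by 0.98 ± 0.13, although 45.0% of its sampled windows are shared with other transcripts. RPIA, an isomerase of the pentose phosphate pathway, rose by 0.90 ± 0.16. TKT, the transketolase of the same pathway, fell by 0.50 ± 0.13. The glycolytic enzyme genes PKM, ALDOA, PFKL and GAPDH were not called, with differences from -0.31 to 0.34. The lower count rested on scale and on 1 library: without control replicate 1 it was 5, since ALDOA (-0.44), PFKL (-0.47) and GAPDH (-0.40) were then called lower. It was also 5 with library weights and with median ratio scaling. PKM was called higher with library weights and without control replicate 3 (0.30 and 0.46).

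Genes of the amino acid stress response fell together. ATF4, their main activator, is translated when amino acids run short or proteins misfold, and its targets import and make amino acids. Of 40 listed genes, 14 were in the table, 13 were called lower and 1 higher, beside 31.2% and 46.5% of all genes. The median difference was -1.49, against 0.37 over all genes. DDIT3 and CHAC1, given above, led the group. SESN2, a leucine sensor that restrains mTORC1, fell from 37.44, 48.59 and 26.18 to 6.84, 4.77 and 5.55, by 2.48 ± 0.22 (SE). ATF3, a transcription factor induced beside DDIT3, fell from 18.27, 20.82 and 14.38 to 4.06, 2.40 and 4.0. INHBE, an inhibin beta subunit gene, fell from 11.15, 7.94 and 3.47 to 0.33, 0.08 and 0.20. In each of these genes every lactosis library lay below every control library. SLC7A11, the cystine importer, fell by 1.45 ± 0.21, and PSPH, the last enzyme of serine synthesis, by 1.31. DDIT4, an inhibitor of mTORC1, fell from 1503.39, 1605.77 and 1577.86 to 771.86, 624.11 and 651.67. The exception was ATF5, a relative of ATF4, which rose by 0.65. Also 13 members were called lower with library weights, with median ratio scaling, and with any 1 library left out. The spread among controls differed by member. DDIT3, SESN2, ATF3 and INHBE had their lowest control value in control replicate 3, while CHAC1 and DDIT4 had it in control replicate 1.

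The aminoacyl-tRNA synthetases, which charge tRNAs with amino acids, were divided. Of 36 listed, 14 were in the table, 3 were called higher, 3 lower and 8 not called, with a median of 0.24. MARS2 and YARS2, which act in mitochondria, rose by 0.89 ± 0.21 and 0.52 ± 0.14 (SE), while WARS2, also mitochondrial, fell by 0.61 ± 0.14. HARS rose by 0.52 ± 0.16, a call that was lost without control replicate 2 (adjusted p of 0.051) and without lactosis replicate 1 or 3 (0.0649 and 0.0731). DARS and QARS, cytosolic synthetases, both differed by -0.37 and were called lower. Both calls were lost without control replicate 2 or 3, without each lactosis library in turn and with the replicate block, which left 1 member called lower. The lower count was 5 without control replicate 1 and with library weights, and 6 with median ratio scaling. The higher count was 7 with library weights and 5 without control replicate 3.

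Of 24 genes of the unfolded protein response, the programme for misfolded proteins in the endoplasmic reticulum, 3 were in the table and all 3 were called lower. HERPUD1, which helps to clear misfolded proteins from the endoplasmic reticulum, read 390.17, 354.67 and 155.27 in control and 36.13, 31.42 and 32.31 in lactosis, a fall of 3.03 ± 0.30 (SE). ERN1, the stress sensor IRE1, fell from 3.58, 7.07 and 3.28 to 1.43, 0.75 and 2.00. CANX, the lectin chaperone calnexin, fell by 0.77 ± 0.16. The other 21 listed genes, which include the main lumenal chaperones, are not in the table.

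The promoter of CHAC1 is shown because CHAC1 had the smallest limma p of the amino acid stress genes and holds a match to the sequence that ATF4 dimers bind. It was searched, as were all promoters below, over the 250 bases before the gene start in RefSeq (GRCh38.p14, 27305 promoters), on both strands. The letters TGATGNAA were found in 2 of the 11 members of the table with a promoter (ATF3 and CHAC1) and in 3.19% of all promoters. The longer form TGATGNAAT, searched first, was in 0 of the 11 and in 0.916% of all. Capitals mark the match, and here and below one on the opposite strand appears as its reverse complement. In CHAC1 it begins 209 bases before the start.
CHAC1 chr15:40953221-40953470, plus strand: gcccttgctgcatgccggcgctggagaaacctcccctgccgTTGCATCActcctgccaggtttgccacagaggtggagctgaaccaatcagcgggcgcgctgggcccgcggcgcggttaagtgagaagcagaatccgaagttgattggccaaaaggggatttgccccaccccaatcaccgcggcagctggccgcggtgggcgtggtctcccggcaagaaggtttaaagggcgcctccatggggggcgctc

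Heat shock chaperones moved the other way. These proteins fold or refold other proteins in the cytosol, and their genes are switched on together by the heat shock factor HSF1. Of 24 listed genes, 15 were in the table, 12 were called higher, none lower and 3 were not called, with a median difference of 1.14. That median is the value of CRYAB, a small heat shock protein that muscle also makes, which was not called. CRYAB read 0.09, 0.34 and 0.65 in control and 0.38, 11.25 and 0.54 in lactosis, so its difference came from lactosis replicate 2, the library with muscle transcripts. Without that library the median of the list was 0.95. HSPA1A, the stress-induced HSP70, read 51.83, 73.26 and 115.36 in control and 542.82, 485.19 and 520.84 in lactosis, a rise of 2.75 ± 0.25 (SE) with a limma adjusted p of 1.14e-04. Its near-identical neighbour HSPA1B rose from 55.28, 76.64 and 104.75 to 440.11, 410.24 and 432.77. For each of the pair, 70.0% of the sampled windows also occur in a transcript of another gene, so reads may have been split between genes. For both, every lactosis library lay far above every control. HSPA2, another HSP70, rose from 2.32, 3.46 and 5.42 to 14.58, 12.97 and 13.52. HSPA8, the HSP70 made at all times, rose from 516.35, 840.09 and 1120.02 to 2346.64, 2183.80 and 2558.35. Co-chaperones followed. DNAJA1 rose by 1.39 ± 0.22, CHORDC1 by 1.29 ± 0.22, HSPH1 by 1.26 ± 0.30 and DNAJB1 by 0.84 ± 0.14. The cytosolic HSP90 genes divided: HSP90AA1, the inducible form, rose by 0.94, and HSP90AB1, with a difference of 0.17, was not called. In HSPA1A, HSPA2, HSPA8 and DNAJA1 the lowest control was replicate 1 and the highest was replicate 3. Between 10 and 13 members were called higher with 1 library left out, and 12 with median ratio scaling.

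The promoters of 3 called chaperones are shown because they carry the repeated units that HSF1 binds. The 2-unit form GAANNTTC was in 5 of the 14 members of the table with a promoter (HSPA1A, HSPA1B, HSPA8, DNAJA1 and CHORDC1) and in 5.85% of all promoters. The 3-unit form, in which another GAA follows after 2 further bases, contains the former. It was searched first and was in 2 of the 14 (HSPA8 and CHORDC1) and in 0.439% of all. Of the 22 listed chaperones with a promoter, in the table or not, 8 held the 2-unit form. Matches to it are in capitals. They begin 106 bases before the start in HSPA1A, 230 and 50 bases before it in HSPA8, and 205, 60 and 50 bases before it in CHORDC1.
HSPA1A chr6:31815293-31815542, plus strand: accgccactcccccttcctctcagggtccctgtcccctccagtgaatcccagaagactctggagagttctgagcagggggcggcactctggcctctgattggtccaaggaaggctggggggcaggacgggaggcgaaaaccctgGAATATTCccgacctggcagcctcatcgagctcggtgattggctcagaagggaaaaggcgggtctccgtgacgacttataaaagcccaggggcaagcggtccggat
HSPA8 chr11:123062137-123062386, minus strand: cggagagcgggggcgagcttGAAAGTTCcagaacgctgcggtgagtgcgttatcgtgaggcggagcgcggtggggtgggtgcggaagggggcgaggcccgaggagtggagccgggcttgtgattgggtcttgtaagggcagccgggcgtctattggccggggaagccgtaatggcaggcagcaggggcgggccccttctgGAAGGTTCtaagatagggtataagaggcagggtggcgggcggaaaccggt
CHORDC1 chr11:90223050-90223299, minus strand: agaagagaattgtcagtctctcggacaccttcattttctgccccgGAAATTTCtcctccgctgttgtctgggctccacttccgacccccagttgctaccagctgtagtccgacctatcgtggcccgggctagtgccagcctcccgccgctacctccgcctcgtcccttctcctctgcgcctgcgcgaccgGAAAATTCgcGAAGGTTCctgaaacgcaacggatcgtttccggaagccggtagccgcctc

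**Figure D3:**
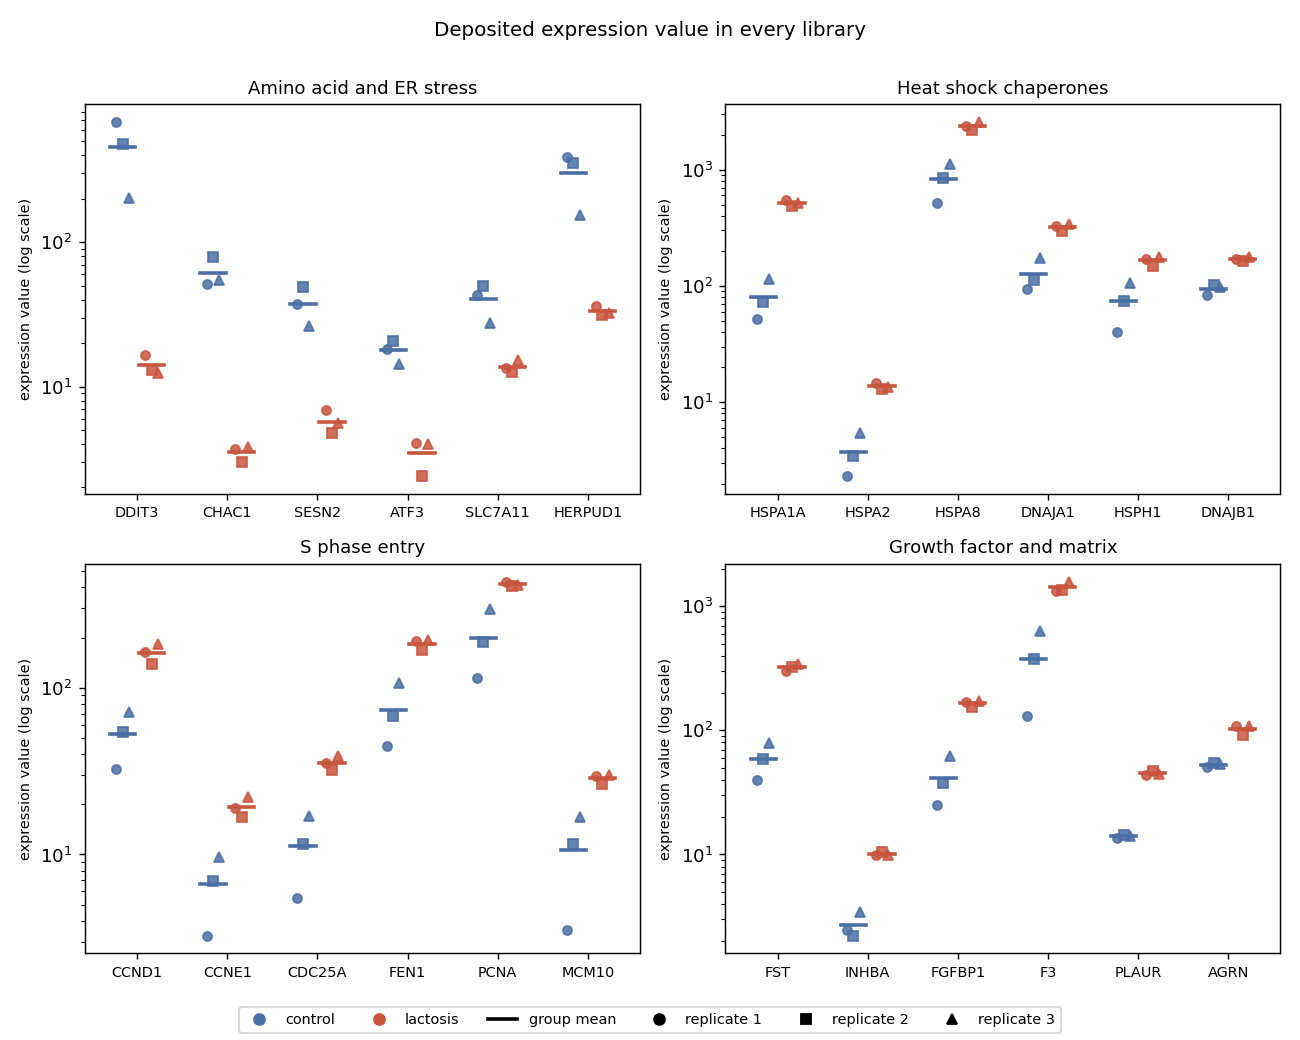
Deposited expression value of 24 genes in every library on a log axis, in 4 panels by role, with control in blue, lactosis in red, the replicate as the marker shape and the group mean as a bar. The 6 stress genes lie lower and the 18 genes of the other panels lie higher in all 3 lactosis libraries, and in most rising genes control replicate 1 is the lowest point.

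DNA replication genes rose. They load and fire the replication origins, copy the strands and supply nucleotides, and many are targets of the E2F factors. Of 47 listed genes, 23 were in the table, 22 were called higher, none was called lower and 1 was not called, with a median of 1.01. CCNE1, the cyclin that opens S phase, rose from 3.26, 6.95 and 9.68 to 18.91, 16.88 and 22.06, by 1.5 ± 0.29 (SE). FEN1, the flap endonuclease, rose from 44.97, 67.55 and 107.47 to 190.10, 168.69 and 194.55. ORC6, a subunit of the origin recognition complex, rose from 22.25, 33.25 and 39.54 to 70.82, 74.30 and 68.69. PCNA, the sliding clamp, rose from 113.81, 187.15 and 296.71 to 433.48, 407.68 and 416.23. MCM10, an initiation factor, rose by 1.56 ± 0.41, and the GINS genes GINS1, GINS2, GINS3 and GINS4 by 0.71 to 1.07. CDT1, which licenses origins before S phase and is removed in it, was the member not called, at -0.31. It was called lower with library weights (-0.34), with median ratio scaling (-0.60) and without control replicate 1 (-0.48). In each gene given by library the lowest control was replicate 1 and the highest replicate 3, and all were below all lactosis libraries. Without lactosis replicate 3 the count called higher was 12, and without lactosis replicate 1 it was 13. The median of the list hardly moved there, at 0.96 and 1.01. Without control replicate 1 the count stayed at 22, but the median was 0.68, beside 0.22 over all genes. With median ratio scaling the count was 21.

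Regulators of the cell cycle also changed. CDC25A, the phosphatase that activates cyclin-dependent kinases at S phase entry, rose from 5.46, 11.48 and 16.95 to 35.58, 32.25 and 38.86, and CCND1, cyclin D1, from 32.39, 54.01 and 71.92 to 163.64, 139.87 and 183.92. Of 32 genes listed for mitosis, 6 were in the table, 4 called higher and none lower, with a median of 0.71. Besides CDC25A these were AURKB, a kinase of chromosome segregation (0.72 ± 0.20, SE), MAD2L1 of the spindle checkpoint (0.81 ± 0.25) and KIF23, a motor of cell division (0.71 ± 0.27). Without lactosis replicate 2 the count called higher was 2. KIF23 was not called with median ratio scaling, with a pseudocount of 0.1, or without any 1 of the lactosis libraries. Inhibitors of the cell cycle and targets of p53 went mostly the other way: 13 of 28 were in the table, 7 called lower and 3 higher, with a median of -0.64. BBC3, the death-promoting protein PUMA, fell from 31.65, 27.16 and 16.29 to 5.12, 4.67 and 5.15. TP53INP1 fell by 1.41 ± 0.14, BTG1, which slows proliferation, by 1.31 ± 0.15, and CCNG2, a cyclin of arrested cells, by 1.21 ± 0.17. Of the 3 called higher, CCND1 and CCND3 are D cyclins, which drive the cycle, and ZMAT3 is a p53 target.

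PCNA and E2F1 are shown as replication promoters with a match to the letters that E2F factors bind, TTTCCCGC or TTTGGCGC. These were in 6 of the 19 members of the table with a promoter (CDT1, GINS2, PCNA, RFC3, E2F1 and E2F2) and in 1.96% of all promoters. Of the 38 listed genes with a promoter, in the table or not, 13 held them. The match, in capitals, begins 59 bases before the start in PCNA and 20 bases before it in E2F1. E2F1 itself rose from 11.87, 22.05 and 27.14 to 40.72, 40.63 and 39.19.
PCNA chr20:5126623-5126872, minus strand: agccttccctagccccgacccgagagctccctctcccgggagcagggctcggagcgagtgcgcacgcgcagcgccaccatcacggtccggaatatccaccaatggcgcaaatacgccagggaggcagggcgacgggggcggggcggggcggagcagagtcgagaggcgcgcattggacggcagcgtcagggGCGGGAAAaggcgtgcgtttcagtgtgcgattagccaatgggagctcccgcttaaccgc
E2F1 chr20:33686386-33686635, minus strand: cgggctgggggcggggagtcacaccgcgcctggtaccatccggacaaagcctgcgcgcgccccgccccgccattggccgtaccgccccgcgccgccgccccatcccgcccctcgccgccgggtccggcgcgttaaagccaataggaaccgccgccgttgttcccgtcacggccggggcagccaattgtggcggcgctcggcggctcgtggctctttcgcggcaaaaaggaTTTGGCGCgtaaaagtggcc

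Genes that build ribosomes and make nucleotides rose by smaller amounts. Of 42 genes for ribosome biogenesis, 26 were in the table, 24 were called higher and none lower, with a median of 0.59 and a range from 0.31 to 1.01. NOP16, a nucleolar protein, rose from 119.26, 140.08 and 144.56 to 263.52, 236.69 and 230.64. RRS1, an assembly factor of the large subunit, rose by 0.80 ± 0.14 (SE), DKC1, the pseudouridine synthase dyskerin, by 0.74 ± 0.14, and PNO1, of small subunit assembly, by 0.72 ± 0.16. The count called higher was 16 with median ratio scaling, 12 without lactosis replicate 1 and 10 without lactosis replicate 3. The median was 0.30 with that scaling, but 0.61 and 0.60 without these libraries. Without control replicate 1 the count stayed at 24, with a median of 0.47. The ribosomal proteins themselves, by symbols that begin with RPL or RPS and are not pseudogenes, had 0 members in the table. All 8 nucleotide synthesis genes in the table, of 28 listed, were called higher, with a median of 0.65. UMPS, of uridine monophosphate synthesis, rose from 15.00, 22.53 and 26.51 to 37.66, 33.62 and 42.06. CTPS1, which makes CTP, rose by 0.80 ± 0.15, IMPDH1, of guanine nucleotide synthesis, by 0.65 ± 0.18, and DCTPP1, a nucleotide pool enzyme, by 0.60 ± 0.15.

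**Figure D4:**
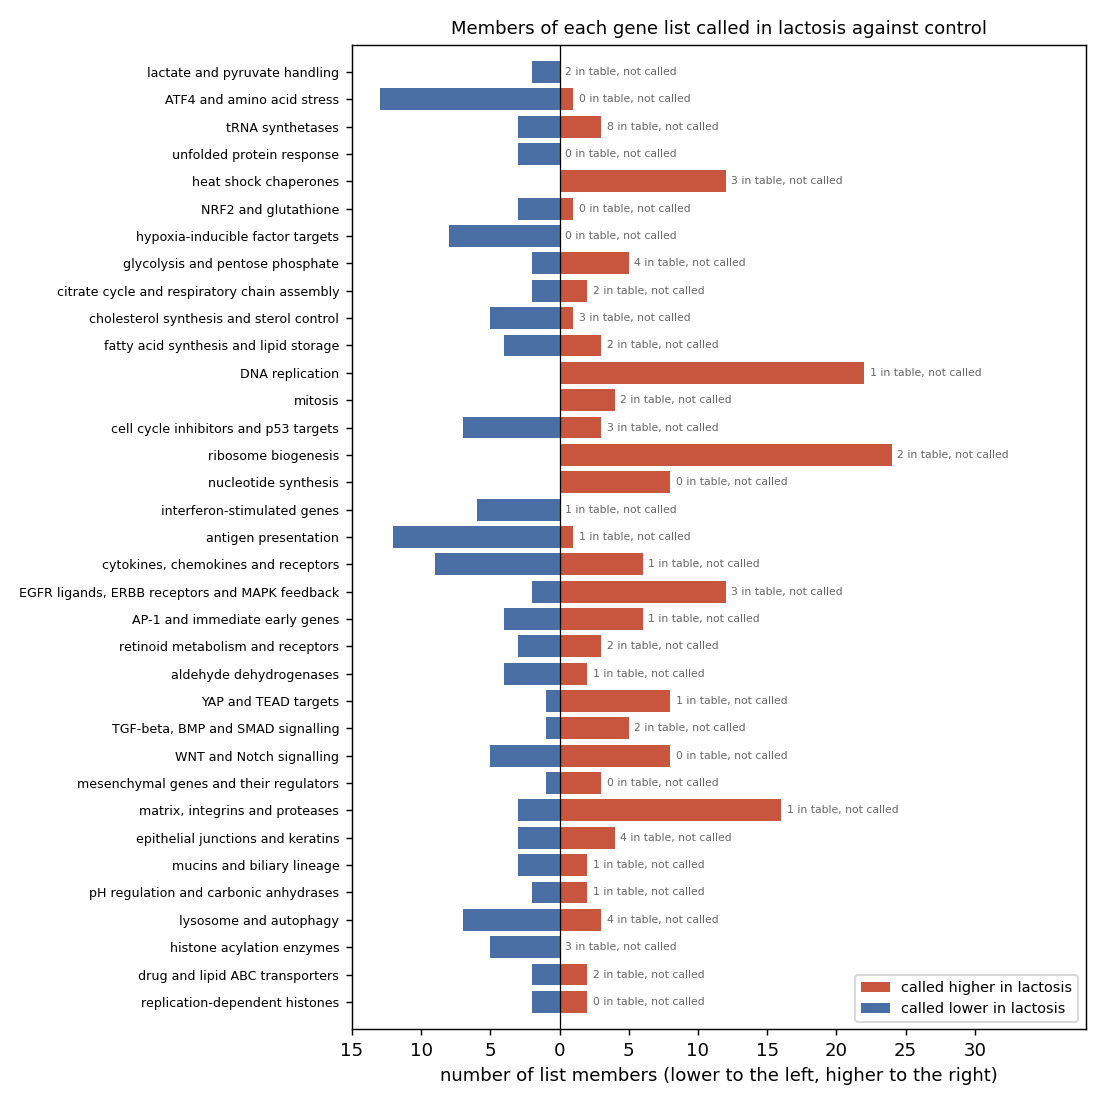
Number of members of each gene list called higher (red, to the right) and lower (blue, to the left) in lactosis, with the number in the table but not called written in grey. Ribosome biogenesis (24 of 26 higher) and DNA replication (22 of 23 higher) stand at one end, and ATF4 and amino acid stress (13 of 14 lower) and antigen presentation (12 of 14 lower) at the other.

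Genes activated in hypoxia fell. The hypoxia-inducible factors are stabilised when oxygen is low and switch on glycolysis, blood vessel growth and collagen processing. Of 34 listed genes, 8 were in the table and all 8 were called lower, with a median of -0.92. VEGFA, the vascular growth factor, fell from 165.03, 183.77 and 128.84 to 61.62, 58.02 and 65.01, by 1.34 ± 0.16 (SE). P4HA1, which hydroxylates collagen, fell from 43.64, 83.20 and 100.88 to 32.18, 27.31 and 32.41. CA9, the membrane carbonic anhydrase widely used as a hypoxia marker, fell from 2.06, 7.72 and 6.93 to 1.04, 1.00 and 0.96. ALDOC, a glycolytic aldolase, fell from 27.75, 58.44 and 53.01 to 20.64, 17.00 and 21.92. In P4HA1, CA9 and ALDOC control replicate 1 was the control nearest to lactosis. With any 1 library left out 6 to 8 were called lower, and with median ratio scaling 8. Neither the oxygen in the cultures nor their cell density was given in the labels, and their part in this fall was not tested.

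P4HA1 and CA9 are shown with the core letters of the hypoxia response element, ACGTG, which 5 of the 6 members of the table with a promoter held (CA9, P4HA1, LOX, ALDOC and KDM4B). Over the whole hypoxia list 16 of 29 promoters held it (55.2%). A motif this short is common, being in 18.7% of all promoters. The match begins 86 bases before the start in P4HA1 and 18 bases before it in CA9.
P4HA1 chr10:73096867-73097116, minus strand: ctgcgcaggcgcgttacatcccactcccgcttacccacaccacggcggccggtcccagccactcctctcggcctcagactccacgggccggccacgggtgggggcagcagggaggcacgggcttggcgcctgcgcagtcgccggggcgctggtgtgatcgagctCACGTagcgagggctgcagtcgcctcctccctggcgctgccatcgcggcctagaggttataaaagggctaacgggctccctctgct
CA9 chr9:35673678-35673927, plus strand: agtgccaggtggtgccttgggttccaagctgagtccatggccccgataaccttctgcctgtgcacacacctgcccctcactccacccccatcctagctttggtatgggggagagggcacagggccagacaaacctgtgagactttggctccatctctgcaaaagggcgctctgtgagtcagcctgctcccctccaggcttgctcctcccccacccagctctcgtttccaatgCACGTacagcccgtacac

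Interferon-stimulated genes and genes that present antigen also fell. Of 37 interferon-stimulated genes, 7 were in the table, 6 were called lower and none higher, with a median of -0.88. The count called lower was 5 without lactosis replicate 1 and 4 without lactosis replicate 2, with medians of -0.96 and -0.71. It was 7 with library weights, with median ratio scaling and without control replicate 1. IFIT2, an RNA-binding antiviral protein, fell from 24.47, 36.06 and 47.40 to 10.42, 8.32 and 10.43, by 1.74 ± 0.22 (SE), and IFIT3 by 1.13 ± 0.24. IRF1 and STAT2, factors that carry the interferon signal to genes, fell by 1.09 ± 0.14 and 0.88 ± 0.17. Of 35 antigen presentation genes, 14 were in the table, 12 called lower and 1 higher, with a median of -0.78. CD74, a chaperone for class II molecules, fell from 19.89, 25.47 and 20.23 to 5.65, 6.14 and 4.90, by 1.80 ± 0.15. The class I gene HLA-F fell from 35.90, 28.48 and 25.81 to 10.82, 10.59 and 10.94. The class II gene HLA-DRA was low throughout, at 2.52, 1.72 and 1.88 against 0.00, 0.31 and 0.13. NLRC5, the activator of class I genes, fell by 1.14. CD274, the gene of PD-L1, a ligand that restrains T cells and presents no antigen, was the member called higher, from 1.92, 2.89 and 2.72 to 7.55, 6.40 and 9.18. Between 10 and 12 antigen presentation genes were called lower with any 1 library left out. None of the 6 leukocyte markers listed is in the table. As the table holds only genes that the authors called different, this cannot show whether such markers were expressed.

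Cytokines, chemokines and their receptors were divided, with 16 of 53 in the table, 9 called lower and 6 higher. TNFSF10, the death ligand TRAIL, fell from 13.86, 26.98 and 32.27 to 6.64, 5.61 and 5.45. IL1RN, the interleukin 1 receptor antagonist, fell by 1.37 ± 0.14 (SE), the chemokine CX3CL1 by 1.12 ± 0.16, and CSF1, a growth factor of macrophages, by 1.06 ± 0.15. All 4 fell in every lactosis library below every control. The count called higher was 2 with median ratio scaling, and 3 without lactosis replicate 1 or 3.

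Growth factor signalling genes were mostly higher. Of 48 genes listed for EGFR ligands, ERBB receptors and the feedback of the MAPK pathway, 17 were in the table, 12 called higher and 2 lower, with a median of 0.73. FGFBP1, which releases fibroblast growth factors from the matrix, rose from 25.04, 37.74 and 62.26 to 168.12, 155.84 and 171.55, by 2.05 ± 0.27 (SE). DUSP2, one of the phosphatases that MAPK signalling induces to limit itself, rose from 2.09, 2.77 and 2.83 to 6.03, 7.58 and 6.05. The receptor FGFR3 was one of the genes called lower, from 14.18, 28.28 and 30.67 to 7.32, 5.73 and 6.11. With library weights, median ratio scaling or control replicate 1 left out, 5 members were called lower.

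AP-1 factors, which MAPK signals activate, moved by member. Of 31 AP-1 and immediate early genes, 11 were in the table, 6 called higher and 4 lower. FOSL1 rose from 56.48, 114.58 and 144.13 to 349.75, 333.84 and 378.60, by 1.84 ± 0.29 (SE), and JUN from 9.5, 18.03 and 19.52 to 45.14, 45.65 and 50.58, by 1.59 ± 0.24. KLF6, a zinc finger factor of the same class of genes, rose by 1.06 ± 0.17, while KLF4, a factor of differentiated epithelium, fell from 70.69, 85.45 and 60.75 to 31.46, 28.27 and 32.92. JUNB, an AP-1 subunit, was also called lower, but not without control replicate 2 or lactosis replicate 3 (-0.43 and -0.47). MYC was called higher, but not with median ratio scaling or without any 1 lactosis library.

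Of 27 targets and partners of YAP and TEAD, which report on cell shape and contact, 10 were in the table, 8 called higher and 1 lower, with a median of 0.82. F3, tissue factor, which starts blood clotting, rose from 130.74, 378.80 and 630.78 to 1332.27, 1367.50 and 1582.21. CYR61, a secreted matrix protein, rose from 77.83, 173.38 and 347.78 to 577.07, 562.62 and 674.54. The controls of both genes ranged over more than the lactosis libraries did, with replicate 1 lowest and replicate 3 highest. FJX1 was tighter, with a rise of 0.86 ± 0.13 (SE). AMOTL2, an angiomotin that restrains YAP, fell by 0.75 ± 0.16. The count called higher was 5 without lactosis replicate 1 or 3.

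In the TGF-beta family, the activin subunit gene INHBA and the activin inhibitor gene FST rose, and the other activin subunit genes of the table did not. Of 43 listed genes, 8 were in the table, 5 called higher and 1 lower. FST, follistatin, which binds and blocks activins, rose from 39.99, 58.46 and 79.32 to 302.83, 322.04 and 344.42, by 2.48 ± 0.22 (SE), and INHBA, the subunit of activin A, from 2.44, 2.22 and 3.47 to 9.98, 10.56 and 9.87. INHBB, the subunit of activin B, was not called, at 24.29, 32.98 and 34.30 in control and 27.48, 22.04 and 28.47 in lactosis, and INHBE, a subunit gene of the amino acid stress list, fell by 2.71. TGFB1 rose by 0.64 ± 0.13. With library weights, median ratio scaling or control replicate 1 left out, 3 members were called lower.

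Matrix genes rose more than they fell. Of 67 genes for matrix, integrins and proteases, 20 were in the table, 16 called higher and 3 lower, with a median of 0.69. AGRN, a basement membrane proteoglycan, rose from 50.73, 54.19 and 53.31 to 107.88, 91.16 and 108.90, by 0.94 ± 0.14 (SE). The laminin chain genes LAMA3 and LAMB3 rose by 0.91 and 0.71, while LAMA5, another laminin chain gene, fell by 0.67 ± 0.17, from 43.50, 57.65 and 49.62 to 33.16, 25.60 and 35.47. The urokinase system split: PLAUR, the receptor, rose from 13.63, 14.24 and 14.16 to 43.71, 46.99 and 44.83, by 1.62 ± 0.13, while PLAU, its ligand, fell from 300.79, 341.75 and 334.32 to 175.86, 139.82 and 168.51, by 1.01 ± 0.15. The matrix count called higher was 10 without lactosis replicate 3. Of 28 mesenchymal genes and their regulators only 4 were in the table. THBS1, thrombospondin 1, rose from 15.15, 82.45 and 180.14 to 359.82, 318.24 and 415.43, and TNC, tenascin C, from 1.53, 1.03 and 0.80 to 3.17, 2.28 and 4.24. LOXL2 rose by 0.90 ± 0.34, but was not called with median ratio scaling, with a pseudocount of 0.1, or without any 1 lactosis library. SNAI3, a repressor of the Snail family, fell from 2.10, 2.12 and 2.09 to 0.13, 0.00 and 0.10. None of the 8 fibroblast markers or the 4 endothelial markers listed is in the table, which does not tell whether they were expressed.

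Keratin genes moved in both directions. Of 53 genes for epithelial junctions and keratins, 11 were in the table, 4 called higher, 3 lower and 4 not called. KRT14 rose from 1.92, 3.09 and 3.84 to 12.20, 11.70 and 13.03, and KRT17 from 626.43, 650.27 and 620.37 to 1228.09, 1331.13 and 1260.98. KRT6A, a keratin of injured epithelium, rose by 1.46. KRT5, the usual partner of KRT14 in basal cells, fell instead, from 21.90, 35.02 and 38.08 to 17.00, 12.98 and 15.59, by 0.98 ± 0.21 (SE). TJP3, of tight junctions, fell by 1.60 ± 0.16. With library weights or without control replicate 1, 6 members were called lower, and with median ratio scaling 7.

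The cells were checked against biliary markers. Only 2 of the 10 listed are in the table. KRT19, the keratin of bile duct cells, had high values, with 2798.71, 4154.74 and 4419.27 in control and 2876.09, 2822.54 and 2729.28 in lactosis. Its difference of -0.40 ± 0.18 (SE) was not called (limma adjusted p of 0.0652), but it was called lower with library weights (-0.44), with median ratio scaling (-0.70) and without control replicate 1 (-0.61). MUC1 was low, at 2.30, 2.20 and 1.41 against 0.61, 0.96 and 0.82, and fell by 0.72 ± 0.16. MUC20 fell by 0.92 ± 0.14, with 60.0% of its sampled windows shared. CD24 rose by 0.74 ± 0.16, and ANXA4 fell by 0.45 ± 0.13, a call that was lost without control replicate 2 (adjusted p of 0.0689) and without lactosis replicate 1 or 2 (0.0675 and 0.0593). None of the 5 hepatocyte markers listed is in the table. For these and for the biliary markers not listed there, absence from the table does not tell whether they were expressed.

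Muscle genes were high in 1 lactosis library and in 1 lactic acidosis library. Of 24 genes of striated muscle, 7 were in the table and none was called. Their summed value was 0.88, 0.66 and 1.5 in control, 0.49 and 0.53 in lactosis replicates 1 and 3, and 55.99 in lactosis replicate 2. ACTA1, skeletal muscle actin, stood at 28.35 in that library and at 0.47 and 0.35 in the other lactosis libraries, and CKM, muscle creatine kinase, at 8.29 against 0.00 and 0.10. The lactic acidosis table lists 4 of the 7 genes (CKM, ACTA1, ACTC1 and MYL3), and their summed value there was 30.21 in replicate 2 against 1.42 and 0.92 in replicates 1 and 3. ACTA1 stood at 19.65 in that library and CKM at 4.97. The acidosis table lists none of the 7. Without lactosis replicate 2, MYL3, CKM and ACTC1 turned to -0.04, -0.08 and -0.07, and 1102 genes were called higher and 662 lower. Without lactic acidosis replicate 2, 67 genes were called higher in lactosis than in lactic acidosis and 192 lower, against 112 and 367 with it. The part of this signal in other results was not tested.

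Retinoid genes changed at several steps. Vitamin A aldehyde is oxidised to retinoic acid by ALDH1A enzymes, reduced back to retinol by DHRS3, and retinoic acid is broken down by CYP26 enzymes. ALDH1A3 rose from 88.28, 177.74 and 249.82 to 441.01, 395.73 and 477.35, by 1.46 ± 0.32 (SE). DHRS3 fell from 281.61, 235.80 and 196.80 to 52.03, 58.69 and 49.76, by 2.12 ± 0.16. CYP26A1 fell from 2.02, 2.33 and 1.99 to 0.05, 0.00 and 0.23, with 30.0% of its windows shared, while CYP26B1 rose from 1.51, 1.87 and 1.78 to 3.30, 3.52 and 4.43. Of the 28 genes listed for retinoids, 8 were in the table, 3 called higher and 3 lower. The lower count was 5 without control replicate 1, with library weights and with median ratio scaling, as the retinoid X receptor genes RXRA and RXRB were then called too (-0.39 and -0.29 without control replicate 1). Of 19 aldehyde dehydrogenases, 7 were in the table, 2 called higher and 4 lower. Beside ALDH1A3, ALDH1B1 of mitochondria rose by 0.85 ± 0.19. ALDH6A1, of valine breakdown, fell from 16.38, 14.40 and 11.93 to 3.89, 4.39 and 5.67, and ALDH3B1 fell by 0.86 ± 0.15.

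WNT and Notch genes were split, with 13 of 53 in the table, 8 called higher and 5 lower. DKK1, a secreted WNT inhibitor, rose from 179.81, 160.24 and 195.73 to 424.55, 483.53 and 447.83, by 1.34 ± 0.14 (SE). The Notch genes divided. HEY1, a target repressor, fell from 22.19, 23.83 and 18.87 to 3.73, 4.66 and 5.20, the receptor NOTCH3 by 1.10 ± 0.17 and HES1, another target repressor, by 0.60. MFNG, a glycosyltransferase that modifies Notch receptors, rose by 1.01 ± 0.16. NRARP, a Notch target that feeds back on the pathway, rose from 12.60, 18.76 and 22.79 to 27.08, 27.23 and 23.69, by 0.54 ± 0.20, but lost its call with median ratio scaling, with a pseudocount of 0.1, and without control replicate 2 or any 1 lactosis library. The count called higher was 4 without lactosis replicate 3 and 5 without lactosis replicate 1.

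Lipid and mitochondrial genes moved in both directions, with the largest fall among those named in PPARGC1A. Of 31 genes for cholesterol synthesis and sterol control, 9 were in the table, 5 called lower and 1 higher. The 1 called higher, EBP, a sterol isomerase, lost its call without control replicate 2 or any 1 lactosis library, with median ratio scaling and with the replicate block. STARD4, a sterol carrier, fell from 35.01, 37.61 and 28.19 to 15.64, 14.39 and 17.02. INSIG1, which holds back the sterol factors, fell by 0.58 ± 0.14 (SE), the late endosomal cholesterol exporter NPC1 by 0.64 ± 0.16 and HSD17B7 of sterol synthesis by 0.59 ± 0.15. Of 35 genes for fatty acids and lipid storage, 9 were in the table, 4 called lower and 3 higher. The acetyl-CoA synthetases ACSS1 and ACSS2 fell by 0.70 ± 0.15 and 0.61 ± 0.18, SREBF1, a factor of lipid synthesis, fell by 0.50 ± 0.13, and GPAM, the first enzyme of triglyceride synthesis, rose by 0.73 ± 0.19. Without control replicate 2 or lactosis replicate 1 or 2 the count called lower was 2, and the call of ACSS2 was lost. The higher count fell to 1 without control replicate 2, without lactosis replicate 1 or 3 and with median ratio scaling, and GPAM kept its call in each of these. Among 29 genes for the citrate cycle and respiration, 6 were in the table, 2 called in each direction. PPARGC1A, a coactivator of mitochondrial genes, fell from 2.79, 4.55 and 3.03 to 0.25, 0.15 and 0.23, by 1.86 ± 0.17. IDH2, of mitochondria, fell by 0.63 ± 0.16, and the factors NRF1 and TFB2M rose by 0.56 ± 0.15 and 0.46 ± 0.13. The call of TFB2M was lost with median ratio scaling. Of 36 NRF2 and glutathione genes, 4 were in the table: NFE2L2, which encodes NRF2, fell by 0.46 ± 0.15, a call lost without 4 of the 6 libraries in turn, and SRXN1, a target that reduces peroxiredoxins, rose by 0.72 ± 0.15, with 82.5% of its windows shared.

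The remaining lists had few members. Of 39 genes for pH regulation and carbonic anhydrases, 5 were in the table, 2 called in each direction: SLC9A2, a sodium-proton exchanger, rose from 0.38, 0.94 and 0.95 to 2.62, 1.68 and 1.93, ASIC1, an acid-sensing channel, rose by 0.56 ± 0.18 (SE), and CA9 and CA5B, carbonic anhydrases, fell by 1.58 ± 0.34 and 0.62 ± 0.14. The call of ASIC1 was lost without lactosis replicate 1 or 3. Of 36 lysosome and autophagy genes, 14 were in the table, 7 called lower and 3 higher. Only 4 were called lower without control replicate 2 or lactosis replicate 1 or 2. The higher count was 1 without control replicate 2 or any 1 lactosis library, with a pseudocount of 0.1 and with median ratio scaling. ULK1, the kinase that starts autophagy, fell from 25.89, 31.68 and 27.25 to 10.44, 7.51 and 9.22. NEU1, lysosomal sialidase, fell by 0.73 ± 0.13, the protease CTSS by 0.72 ± 0.17, and FLCN, which acts in mTORC1 control at lysosomes, by 0.54 ± 0.14, with 27.5% of its windows shared. Among 32 histone acylation enzymes, 8 were in the table and 5 were called lower. HDAC9 fell from 8.49, 12.86 and 15.32 to 3.95, 3.48 and 4.30, and HDAC11 by 0.62 ± 0.13, while KAT6B, at -0.48 ± 0.18, was called although its groups overlapped, and lost its call without any 1 library except control replicate 1. The count called lower was 2 without control replicate 2 or lactosis replicate 1 or 2, and 3 without control or lactosis replicate 3. Of 22 ABC transporters, 6 were in the table, with ABCB10 higher by 0.78 ± 0.21 and ABCA12 and ABCA1 lower by 0.83 ± 0.17 and 0.51 ± 0.14. ABCC1, at 0.49 ± 0.20, had an adjusted p of 0.0497 and overlapping groups. Its call was lost without control replicate 1 or 2 and without lactosis replicate 1 or 3, and that of ABCA1 without control replicate 2. Of 25 replication-dependent histone genes, 4 were in the table. HIST3H2A fell from 166.29, 137.16 and 105.36 to 34.52, 25.42 and 33.88, HIST2H2BE fell by 0.94 ± 0.15, HIST1H2BK rose by 0.91 ± 0.15, with 52.5% of its windows shared, and HIST1H2BJ rose by 0.68 ± 0.25. The call of HIST1H2BJ was lost with median ratio scaling and without each lactosis library in turn. Since poly(A) RNA was selected and most histone messages carry no poly(A) tail, these values cover only the tailed part.

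Lactosis was then set against the other treated groups, which shared the same controls, with limma on the genes in both tables. Lactosis and lactic acidosis, which had lactate in common and differed in pH and in HEPES (these cannot be told apart), shared 2344 genes, 75.9% of the lactosis table and 54.8% of the other. Between them 479 genes were called, or 20.4%, with 112 higher in lactosis (4.78%) and 367 lower (15.7%). Their libraries did not overlap in 959 genes (40.9%), with lactosis above in 198 (8.45%) and below in 761 (32.5%). The split of calls was 197 and 370 with library weights, and 265 and 274 with median ratio scaling. As that scaling tends to even out the split by its construction, it cannot decide whether there was a surplus of lower genes. Lactosis and acidosis differed in lactate, in pH and in HEPES at once, and these cannot be told apart. They shared 1173 genes, 38.0% and 68.2% of the tables. Of these 280 were called, or 23.9%, with 192 higher in lactosis (16.4%) and 88 lower (7.50%). Their libraries did not overlap in 466 genes (39.7%), with lactosis above in 309 (26.3%) and below in 157 (13.4%). Here the split of calls was 223 and 149 with library weights and 193 and 173 with median ratio scaling.

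CHAC1 lay below its controls in all 3 treated groups. It stood at 11.12, 15.62 and 11.48 in lactic acidosis, above lactosis, with a difference between these groups of -1.60 ± 0.13 (SE, adjusted p of 2.04e-05). DDIT3 lay below its controls too, at 15.06, 17.01 and 16.99 in lactic acidosis and at 34.95, 29.18 and 30.43 in acidosis. HSPA1A stood at 378.77, 344.07 and 375.74 in lactic acidosis and at 376.96, 387.65 and 371.95 in acidosis, above its controls in both. Other genes parted. TNFSF18, a ligand of T cell costimulation, read 75.35, 83.83 and 57.52 in control, 30.95, 24.69 and 41.73 in lactosis and 128.18, 166.82 and 133.39 in lactic acidosis. VAV1, a guanine nucleotide exchange factor, was likewise below control in lactosis, at 1.04, 1.27 and 1.31. In lactic acidosis it was above control, at 5.70, 5.55 and 5.51. Its values were low, and its call in lactosis against control was lost in 2 alternatives. These were a pseudocount of 5 and lactosis replicate 1 left out (limma adjusted p of 0.0585 and 0.0599). KRT5 was lower than control in both, but lowest in lactic acidosis, at 3.30, 3.04 and 3.37. INSIG1 and RNF130, a ubiquitin ligase, were also lower in lactic acidosis than in lactosis, by 1.22 ± 0.08 and 1.51 ± 0.09, and ANKRD33B was higher there by 1.53 ± 0.09.

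Against acidosis, AKAP12 was the named gene furthest higher in lactosis among the genes in both tables, by 2.17 ± 0.19 (SE). It read 453.89, 493.12 and 462.56 in lactic acidosis, 159.18, 139.73 and 206.91 in lactosis and 46.89, 32.46 and 31.06 in acidosis. Both groups with lactate thus lay above the group without, and all lay above control. As lactosis and acidosis also differed in pH and HEPES, the part of lactate in this order was not tested. ZBED2 and HS3ST1, a heparan sulfate sulfotransferase, had their lowest treated values in acidosis too, with HS3ST1 at 29.20, 29.29 and 28.45 there against 69.74, 68.85 and 72.78 in lactosis. RCSD1 and CERS4 were lower in lactosis than in acidosis, by 2.01 ± 0.12 and 1.56 ± 0.11. APOL3, an apolipoprotein L, was below control in lactosis, at 2.48, 1.89 and 1.99, and above it in acidosis, at 9.92, 10.62 and 8.09. S100A9, a calcium-binding protein of inflammation, was lower in lactosis than in acidosis by 1.30 ± 0.17. HIST1H2BK was higher in lactosis than in both, with 505.61, 475.89 and 475.90 against 169.59, 184.01 and 179.86 in lactic acidosis and 184.05, 198.71 and 193.33 in acidosis, where it lay below its controls of 223.00, 263.20 and 292.13. All 16 of these direct differences kept their direction and their call in each alternative that tested them.

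**Figure D5:**
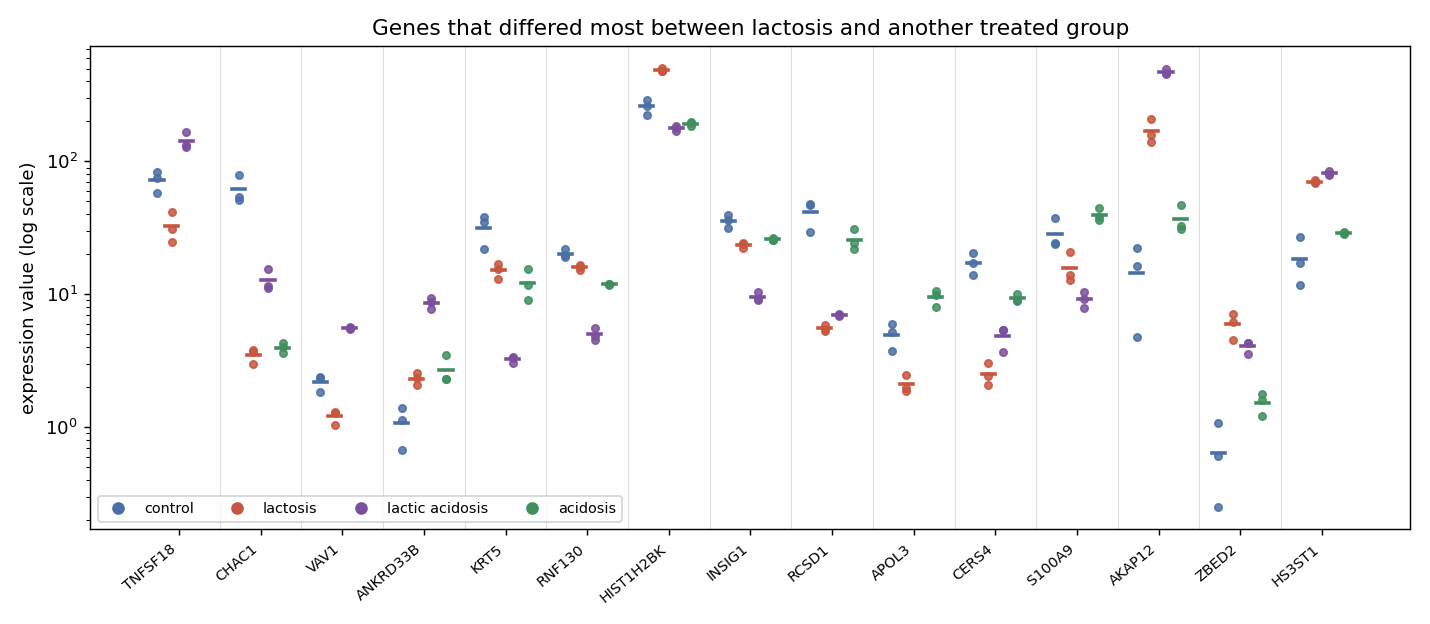
Deposited expression value (log axis) in every library by group, with the group mean as a bar. Shown are the 15 genes that differed most between lactosis and another treated group, among genes listed for both. A group is missing where its table does not list the gene. HIST1H2BK is higher in lactosis than in every other group, and TNFSF18, VAV1 and APOL3 lie on opposite sides of control in lactosis and in one other treated group.

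Of the 161 genes named by rule here, 8 were in the lactosis table and in neither of the others. These were CA9, P4HA1, DUSP2, DKK1, KRT17, HIST1H2BJ, LCN2 and the muscle gene MYH7. A gene not listed in another table was not shown to be unchanged there, so this is a statement about the tables only.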

How the data were processed

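Poly(A) RNA of 12 libraries in 4 groups was sequenced as single ends of 75 nt, per the labels' protocols, and the control libraries are the same in every table. STAR and hg38 are named, without a version, in the submitters' processing notes, and the counting tool is not given in the sources used here. The deposited values are a length-scaled expression signal per library, with depth unknown, so no counting error could be given. The authors' deposited probability of equal expression was read only to see what the tables were filtered on, and was at most 0.0500.

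The comparison of groups used limma (version 3.58.1, under R 4.3.3) with a pseudocount of 1 and no covariate, and Benjamini-Hochberg adjustment ran over all genes of the table, and the code was tested on simulated data. A weight per library was estimated so that weighted values gave the group means in the authors' tables. Replicate numbers were not used to pair the libraries. Between control and lactosis the correlations of deviations from the group means for equal numbers were -0.02, -0.26 and 0.12. Between lactosis and lactic acidosis they were 0.12, 0.22 and -0.06, and between lactosis and acidosis 0.08, 0.21 and -0.39. Alternatives were pseudocounts of 0.1 and 5, a mean value of at least 1, library weights, median ratio scaling, a trended prior variance, a replicate block and each library left out.

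The members and gene lists were chosen with earlier results of these data known. Genes named are the largest rises and falls past the test with a higher group mean of at least 5, up to 4 per list by smallest p, all of the lactate list, and the 4 largest differences per direction against each other treated group. Chosen after their values were seen were the other named chaperones, cell cycle, amino acid stress, laminin and keratin genes, the glycolytic enzymes not called, NLRC5, ZMAT3, INHBB, NRARP, HES1, the genes named for lost or gained calls and the muscle genes, the promoters printed, the motifs GAANNTTC and TGATGNAA, the gene families, the window on chromosome 6 and the look at the control libraries. Sequence sharing was taken over 40 windows of 75 bases per gene. Positions are from GENCODE 29 and promoters from RefSeq, with 2339 of the 3087 symbols matched. Some genes are not reported here.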

Additional observations from a re-analysis of the deposited data

Results flagged for a closer look

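In 16 differences, the response in lactosis and in another treated group, measured against the same controls, differed by the limma test of the 2 treated groups themselves. Each value is lactosis minus the other group on the log2(value + 1) scale. Against lactic acidosis, TNFSF18 differed by -2.13, CHAC1 by -1.60, VAV1 by -1.58 and ANKRD33B by -1.53. KRT5 differed by 1.93, RNF130 by 1.51, HIST1H2BK by 1.45 and INSIG1 by 1.22. Against acidosis, RCSD1 differed by -2.01, APOL3 by -1.75, CERS4 by -1.56 and S100A9 by -1.30. AKAP12 differed by 2.17, ZBED2 by 1.45, HIST1H2BK by 1.33 and HS3ST1 by 1.25. These genes were picked for the size of the difference.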

How the results depend on the processing

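Of 177 differences of named genes, 154 kept direction and call under every alternative run and 23 did not. SLC16A1 turned to -0.05 with median ratio scaling, and without lactosis replicate 2 MYL3, CKM and ACTC1 turned to -0.04, -0.08 and -0.07. With 1 library left out these muscle genes ranged from -0.04 to 1.45, from -0.08 to 1.53 and from -0.07 to 0.93. Against control, median ratio scaling gave 924 genes called higher. Leaving out 1 library gave 756 to 1629 higher and 631 to 1228 lower, with the count moved by over 1.5 times without control replicate 2 (631 lower), lactosis replicate 1 (779 higher) and lactosis replicate 3 (756 higher). Against lactic acidosis, library weights gave 197 higher and median ratio scaling 265. Leaving out 1 library gave 63 to 135 higher and 192 to 551 lower. The count moved by over 1.5 times without lactosis replicate 1 (63 higher, 233 lower) or 3 (551 lower), and without lactic acidosis replicate 1 (243 lower), 2 (67 higher, 192 lower) or 3 (66 higher, 220 lower). Against acidosis, library weights gave 149 lower and median ratio scaling 173. Leaving out 1 library gave 84 to 260 higher and 47 to 81 lower. The count moved by over 1.5 times without lactosis replicate 1 (102 higher, 54 lower) or 3 (121 higher), and without acidosis replicate 2 (84 higher, 47 lower) or 3 (122 higher). The causes were not tested.

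The replicate block, run although the main test did not pair libraries by number, gave 1301 higher and 837 lower against control. It gave 87 and 248 against lactic acidosis, and 157 and 83 against acidosis. With the block 6 of the 7 muscle genes were called higher. Depth is unknown, so what low values can show is not known either.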

Other observations

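On chromosome 6, between 25 and 34 Mb, where the HLA genes and many histone genes lie, 42 genes were in the table, 11 called higher and 26 lower, so that 29.7% of the calls were higher. On the rest of chromosome 6 this share was 52.7%, from 48 higher and 43 lower among 116 genes, and over all 2959 genes with 1 position it was 60.0%. Gene families were counted on the main scale only, and are read beside 46.5% of all genes called higher and 31.2% called lower. By symbol, 16 of 20 genes for mitochondrial ribosomal proteins (MRPL and MRPS) were called higher and 2 lower. All 9 RRP genes, of ribosomal RNA processing, were called higher. Zinc finger genes with ZNF symbols went more often the other way, with 25 of 52 called lower and 15 higher. Of 32 antisense RNAs or lincRNAs 21 were called lower and 9 higher. Whether the reads kept strand is not given, so an antisense RNA and its partner gene cannot be told apart.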
